A study of Homo sapiens with 8 samples.

Results

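The genes encoding the protein components of the cytosolic ribosome were examined in DND-41 and MOLT-4, 2 lines grown from T-cell acute lymphoblastic leukaemia (T-ALL). Members were taken by symbol: RPL or RPS followed by a number, with or without the letter A or X, and in addition RPLP0, RPLP1, RPLP2, RPSA, RPL36AL and RPL22L1. The rule matched 98 Ensembl identifiers, and for each of the 7 symbols with several identifiers the one with the highest total count was kept. This gave 79 of the 63677 genes in the tables, 48 of the large (60S) subunit and 31 of the small (40S) subunit, on 21 chromosomes. The rule itself uses no value of the response, but it was chosen with earlier results of these data known.

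Cells of each line had received 100 nM ACBI-1 or the solvent DMSO for 3 h before total RNA was taken, which gave 4 groups of 2 libraries: DND-41 with ACBI-1, DND-41 with DMSO, MOLT-4 with ACBI-1 and MOLT-4 with DMSO. ACBI-1 is a small molecule that brings the chromatin remodelling ATPases SMARCA2 and SMARCA4 and the related subunit PBRM1 to the VHL ubiquitin ligase, so that they are degraded. Both lines are long-established cultures of leukaemic T cells, and each stands for 1 leukaemia. Whether the libraries of a group are separate cultures is not in the labels, and p-values therefore cover the spread among these libraries alone, possibly a technical one.

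Each ribosome holds 1 copy of nearly every ribosomal protein, and surplus ribosomal protein that finds no partner is degraded. Their mRNAs are among the most abundant in growing cells, are short, and mostly begin with a terminal oligopyrimidine (TOP) tract, a cytosine followed by a run of pyrimidines through which mTOR and LARP1 control their translation. In T-ALL the ribosomal protein genes RPL5, RPL10, RPL11 and RPL22 are known targets of mutation or deletion.

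Sequences around annotated transcription starts were used to see how far the members share this start. RefSeq entries (build GRCh38.p14, while the counts use hg19) matched 64 of the 79 members, and 15 members had none. Of the 64, 47 (73.4%) had an annotated start at a C followed by at least 4 bases that are C or T, against 1404 of 27305 genes with an entry (5.14%). The windows below are those of the members on which the results turn, each 30 bases long, 15 before and 15 from the start. Capitals mark the unbroken pyrimidine run that opens at the start site, and a window without capitals has no C-led run of at least 5 pyrimidines at the start shown.
RPL22L1 at chr3:170870181-170870210, minus strand: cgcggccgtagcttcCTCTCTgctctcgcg
RPL22 at chr1:6199581-6199610, minus strand: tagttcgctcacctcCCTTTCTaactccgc
RPL31 at chr2:101002274-101002303, plus strand: acaatccttcgcgctCTTCCTTTCCaactt
RPS12 at chr6:132814554-132814583, plus strand: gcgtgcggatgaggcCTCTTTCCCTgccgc
RPLP2 at chr11:809952-809981, plus strand: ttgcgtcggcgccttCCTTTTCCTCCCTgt
RPL27 at chr17:42998404-42998433, plus strand: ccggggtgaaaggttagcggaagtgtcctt
RPL36AL at chr14:49620612-49620641, minus strand: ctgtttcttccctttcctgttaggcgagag

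The runs of RPL22L1, RPL22, RPL31, RPS12 and RPLP2 were 6, 7, 10, 10 and 13 bases long. In the 250 bases before the start, on both strands, the ETS-type motif CCGGAAG was found for 21 of the 64 members (32.8%) and for 10.2% of all genes with an entry. The YY1-type motif AAGATGG was found for 1 member (1.56%, against 4.49%), and the E-box CACGTG, to which MYC binds, for 3 members (4.69%, against 7.73%). Bases after the start were not searched for these motifs. The matches describe letters in the windows and say nothing of binding in these cells.

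Library totals lay between 19867779 and 20082524 counts. T-lineage marker genes summed to 4775 to 4959 counts on a common library size (CPM) in DND-41 and to 2604 to 2779 CPM in MOLT-4, TLX3 marked DND-41 alone (226 to 373 CPM, at most 0.462 in MOLT-4), and TAL1 and LMO2 marked MOLT-4. The 4 erythroid markers had 0 counts throughout, and the myeloid list summed to at most 0.604 CPM. The B-cell list summed to 1552 to 1764 CPM in DND-41, nearly all of it CD79A, and to 10.3 to 17.0 CPM in MOLT-4, while MS4A1 was at 0. In the DND-41 DMSO replicate 2 library, 20 genes, chosen as expressed in MOLT-4 and near 0 in the other DND-41 libraries, were at a median of 0.554% of their MOLT-4 level. This selection fixes that they are lower in those other libraries.

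Of the 79 members, 78 passed the filter on low counts. Median transcript length was 710.5 bases for members and 2419 bases over all genes with a principal transcript (GENCODE release 29), and median GC content was 49.5% and 50.2%. Per length, the median level was 571 CPM per kb. RPS2, of the 40S entry channel, was highest with 3821 CPM per kb, and RPL28, RPL27, RPS27 and RPLP0 followed with 1934, 1878, 1734 and 1619. RPS10 was lowest with 7.34 CPM per kb, next to RPL22L1 with 13.2, RPL36A with 15.7 and RPL17 with 19.9. RPS10, RPL36A and RPL17 each overlap a read-through gene in the tables, which held 3, 1 and 17 counts. Processed pseudogenes of RPS10 held 73.7% as many counts as RPS10 itself, so the levels of these members are uncertain. The length of RPL37 rests on a long annotated form of 7686 bases, and so does its level of 50.2 CPM per kb.

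Together the members took up 3.89% and 4.13% of all counts in the DND-41 DMSO libraries and 3.87% and 4.42% in the DND-41 ACBI-1 libraries, as replicates 1 and 2. In MOLT-4 they took up 4.93% and 4.70% with DMSO and 5.13% and 5.01% with ACBI-1. The 95% binomial interval of a share (Wilson) was at most 0.0194 percentage points wide, for counting error only, so the libraries differed by more than counting. In DND-41 the ACBI-1 libraries lay on either side of the DMSO libraries (4.14% ± 0.39 against 4.01% ± 0.17, SD, n = 2). In MOLT-4 both ACBI-1 libraries lay above both DMSO libraries (5.07% ± 0.08 against 4.82% ± 0.16, SD, n = 2), and every MOLT-4 library lay above every DND-41 library. With 2 against 2 libraries an exact permutation test cannot go below p = 0.333, so the treatment differences in share carry no test. Between the lines, with both treatments together, the shares differed by an exact two-sided permutation test of 4 against 4 libraries (p = 0.0286, the smallest it can give). This p follows from the full separation already stated and treats DMSO and ACBI-1 libraries of a line as interchangeable. It covers these libraries of 1 line each and adds nothing to that separation.

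The share moves with what else fills the library. Mitochondrially encoded genes took 15.2% and 15.1% of the DND-41 DMSO libraries, 17.4% and 13.3% of the ACBI-1 libraries, 19.3% and 20.0% of the MOLT-4 DMSO libraries, and 17.8% and 19.5% of the MOLT-4 ACBI-1 libraries. With these genes out of the total, the members took 4.59% and 4.87% in DND-41 with DMSO and 4.68% and 5.10% with ACBI-1, which overlap. The MOLT-4 values were then 6.11% and 5.88% with DMSO and 6.23% and 6.22% with ACBI-1, which do not. In bulk RNA of this kind, more ribosomal protein mRNA per cell and more cells that hold much of it cannot be told apart.

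**Figure D1:**
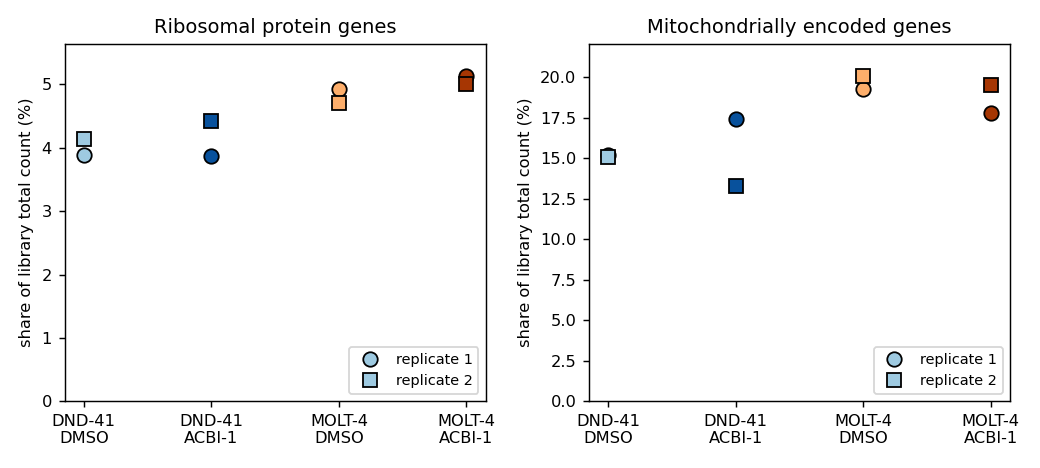
Share of each library's total count (percent) taken by the 79 ribosomal protein genes (left) and by mitochondrially encoded genes (right). Each symbol is 1 library, a circle for replicate 1 and a square for replicate 2. The MOLT-4 libraries lie above the DND-41 libraries in the left panel, and the DND-41 ACBI-1 libraries span 3.87% to 4.42%.

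The first question was whether ACBI-1 changed these mRNAs in DND-41. None of the 78 tested members passed an adjusted p of 0.05 (edgeR quasi-likelihood test, Benjamini-Hochberg over 14019 genes), where 9.83% of all genes tested did, 3.78% as rises and 6.05% as falls. DESeq2 also called 0 members (4.74% of all genes), as did the authors' deposited table (4.99%). At an unadjusted p under 0.05 the edgeR test gave 1 member, against 21.4% of all genes. The fitted log2 fold changes of members ran from -0.10 to 0.27, with a median standard error (SE) of 0.08. Their median was 0.04, beside 0.00294 for all genes, and 65 of 78 were above 0, against 50.6% of all genes. The 48 large-subunit members had a median of 0.05 and the 30 small-subunit members tested one of 0.04.

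The member with the smallest p in DND-41 was RPS29, a zinc-binding protein of the small-subunit head. It was at 85.0 and 77.8 CPM with DMSO and at 89.7 and 93.1 CPM with ACBI-1, so the groups do not overlap. The log2 fold change was 0.18 ± 0.07 (SE, edgeR adjusted p = 0.103), short of the threshold. Besides RPS29, the libraries of RPL23A and RPL36AL were also higher without overlap, and those of RPL30 and RPS27A lower. That made 3 of 78 members higher (21.4% of all genes) and 2 lower (27.5%). RPL23A, at the exit of the peptide tunnel, went from 212 and 216 to 217 and 242 CPM (0.12 ± 0.07, adjusted p = 0.34). RPL36AL, a retrocopy-derived paralogue of RPL36A, went from 68.5 and 68.6 to 71.5 and 75.8 CPM (0.12 ± 0.07, adjusted p = 0.363). RPL30 was at 261 and 267 CPM with DMSO and at 241 and 251 CPM with ACBI-1 (-0.08 ± 0.07, adjusted p = 0.525). For RPL23A the gap between the groups was smaller than the gap within either, and for RPL30 it was smaller than the gap between its ACBI-1 libraries.

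In DND-41 the members' median difference was larger between single replicate libraries than between the treatments. From replicate 1 to replicate 2 of the ACBI-1 libraries, the median difference over members was 0.17 on the log2 scale, with 74 of 78 above 0. For the DMSO libraries it was 0.11, with 69 of 78 above 0. Over all genes these medians were 0.01 and 0.01. Both exceeded the median response of 0.04, which compares 2 libraries with 2 and so varies less than a difference of single libraries. Without the ACBI-1 replicate 2 library the median response of the members was -0.04, and without the DMSO replicate 1 library it was -0.01.

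**Figure D2:**
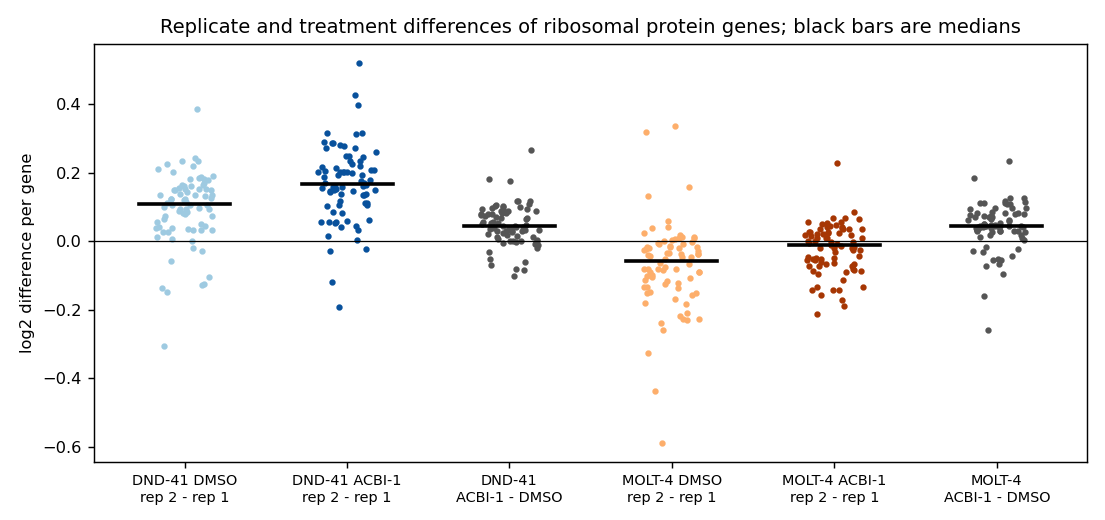
Log2 difference of each tested member between the replicates of a group (replicate 2 minus replicate 1) and between treatments (ACBI-1 minus DMSO), with black bars at the medians. In DND-41 the replicate medians are 0.11 (DMSO) and 0.17 (ACBI-1) and the treatment median is 0.04, and in MOLT-4 the replicate medians are -0.06 (DMSO) and -0.01 (ACBI-1) and the treatment median is 0.05.

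The same question was asked of MOLT-4. Here 1 of 78 tested members, RPL27, passed the threshold, as a fall, where 10.8% of the 14470 genes tested did (3.9% as rises and 6.94% as falls). DESeq2 called 0 members (5.21% of all genes), as did the authors' deposited table (5.57%), and the edgeR test gave 3 members at an unadjusted p under 0.05 (22.6% of all genes). The log2 fold changes ran from -0.26 to 0.23, with a median of 0.05 beside -0.00095 for all genes. Again 65 of 78 were above 0 (49.8% of all genes). For 42 members both ACBI-1 libraries lay above both DMSO libraries, against 26% of all genes, and for 2 members, RPL27 and RPL29, they lay below (24.9%). Replicates differed by medians of -0.06 (DMSO) and -0.01 (ACBI-1) over the members. The median response was 0.09 without the DMSO replicate 1 library and 0.03 without the DMSO replicate 2 library.

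RPL27, a large-subunit protein mutated in some cases of Diamond-Blackfan anaemia, was at 1322 and 1131 CPM in MOLT-4 with DMSO and at 1083 and 981 CPM with ACBI-1. The highest ACBI-1 library was below the lowest DMSO library by less than the DMSO libraries differed from each other. RPL27 fell by 0.26 on the log2 scale (SE 0.07, edgeR adjusted p = 0.0215). DESeq2 gave an adjusted p of 0.378. The call was lost in 8 of 13 alternatives, whose adjusted p ran from 6.39e-05 to 0.513, among them scaling by total counts (adjusted p = 0.0998), where RPL22L1 was called as a rise in its place. Without the DMSO replicate 1 library the change was -0.14 (edgeR adjusted p = 0.296), and without either ACBI-1 library RPL27 was not called, nor was any other gene. In DND-41, RPL27 was at 739 and 710 CPM with DMSO and at 691 and 928 CPM with ACBI-1, and its log2 fold change there was 0.18 ± 0.09 (edgeR adjusted p = 0.286). One DND-41 ACBI-1 library was thus below both controls and the other far above them. Without that higher library, replicate 2, the change was -0.05.

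RPL22L1 is the paralogue of RPL22, and either protein can sit at the same place on the ribosome. In MOLT-4 it was at 42.2 and 37.2 CPM with DMSO and at 46.4 and 47.6 CPM with ACBI-1, both above the controls. The log2 fold change was 0.23 ± 0.08 with an edgeR adjusted p of 0.0518, which just missed the threshold, and DESeq2 gave 0.22. The call was gained in 4 of 13 alternatives (adjusted p 0.0098 to 0.468), and without the DMSO replicate 2 library the change was 0.15. In DND-41 it was at 13.9 and 16.0 CPM with DMSO and at 13.5 and 14.8 CPM with ACBI-1, with overlap (-0.06 ± 0.11). RPL22 itself was at 144 and 149 CPM in DND-41 with DMSO, at 143 and 145 with ACBI-1, at 140 and 154 in MOLT-4 with DMSO and at 153 and 153 with ACBI-1. Its log2 fold changes were -0.01 ± 0.07 and 0.05 ± 0.06, within the spread of the libraries.

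The third member with an unadjusted p under 0.05 in MOLT-4 was RPS9, which binds the small-subunit rRNA early in assembly. It went from 511 and 493 to 545 and 558 CPM (0.13 ± 0.06, edgeR adjusted p = 0.213). RPS3A (0.13 ± 0.06) and RPL9 (0.12 ± 0.06) had the next smallest p among positive values, with adjusted p of 0.222 and 0.268. On the other side stood RPL29, at 929 and 946 CPM with DMSO and 866 and 898 with ACBI-1 (-0.10 ± 0.06, adjusted p = 0.397), RPL17 (-0.16 ± 0.13) and RPS26 (-0.07 ± 0.07). For RPL17, at 12.9 and 10.3 CPM with DMSO and 11.2 and 9.65 with ACBI-1, the groups overlap.

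Among the members tied to T-ALL, 0 of 4 passed the test in either line. Over all genes tested, 9.83% were called in DND-41 and 10.8% in MOLT-4, so 0 of 4 is no departure from these shares. RPL5 and RPL11, which carry 5S rRNA into the large subunit and hold MDM2 when assembly stalls, had log2 fold changes of 0.03 ± 0.07 and 0.04 ± 0.07 in DND-41 and of 0.03 ± 0.06 and 0.02 ± 0.06 in MOLT-4. RPL10, which is added last in the cytoplasm, had -0.07 ± 0.09 and 0.05 ± 0.07. The stalk proteins, which recruit elongation factors, also stayed short of the threshold. RPLP0 had 0.02 ± 0.09 in DND-41 and 0.05 ± 0.07 in MOLT-4, RPLP1 0.07 ± 0.08 and 0.03 ± 0.06, and RPLP2 -0.08 ± 0.08 and 0.04 ± 0.06. RPS6, the substrate of S6 kinase, had 0.04 ± 0.08 and 0.08 ± 0.06. Diamond-Blackfan anaemia is an inherited failure of red cell production. Against the same shares of all genes, 0 of the 21 tested members known from it were called in DND-41 and 1, RPL27, in MOLT-4. RPS19, the most often mutated of them, had 0.07 ± 0.08 and 0.04 ± 0.06, RPS14 0.05 ± 0.08 and -0.05 ± 0.06, and RPSA, the laminin receptor precursor, -0.00504 ± 0.08 and 0.10 ± 0.06. RPS10 had the largest value in DND-41, 0.27 ± 0.21, from levels of 3.50 and 2.83 CPM with DMSO and 3.38 and 4.14 CPM with ACBI-1 that overlap.

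Next, the responses of the lines were compared as the interaction of line and treatment in a fit of all 8 libraries. None of 78 members passed the edgeR test (0.641% of 15604 genes did), and DESeq2 gave 0 as well (0.59%). Of the differences 25 of 78 were above 0, against 43.9% of all genes, and by direction 0.442% of all genes were called as higher and 0.199% as lower. At an unadjusted p under 0.05 there were 2, against 7.64% of all genes. RPL27 differed by 0.41 ± 0.14 on the log2 scale, DND-41 minus MOLT-4 (edgeR adjusted p = 0.297), and RPL22L1 by -0.32 ± 0.14 (adjusted p = 0.527). Without the DND-41 ACBI-1 replicate 1 library the difference of RPL27 was 0.61 and passed (adjusted p = 0.00117), and without replicate 2 it was 0.18 and did not.

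In both lines 56 of 78 members (71.8%) had values above 0, against 34.4% of the 12968 genes tested in both. With 65 of 78 above 0 in each line, most members had to be above 0 in both, however the responses were related. The 4 members RPL29, RPL30, RPS25 and RPS26 had values below 0 in both. Across members, which share their libraries, the responses of the lines hardly ran together (Pearson r = 0.03, Spearman rho = 0.05 over 78 genes), whereas over all genes they did (0.44 and 0.46). The SD of the members' log2 fold changes was 0.06 in DND-41 and 0.07 in MOLT-4, about the size of a single member's SE.

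**Figure D3:**
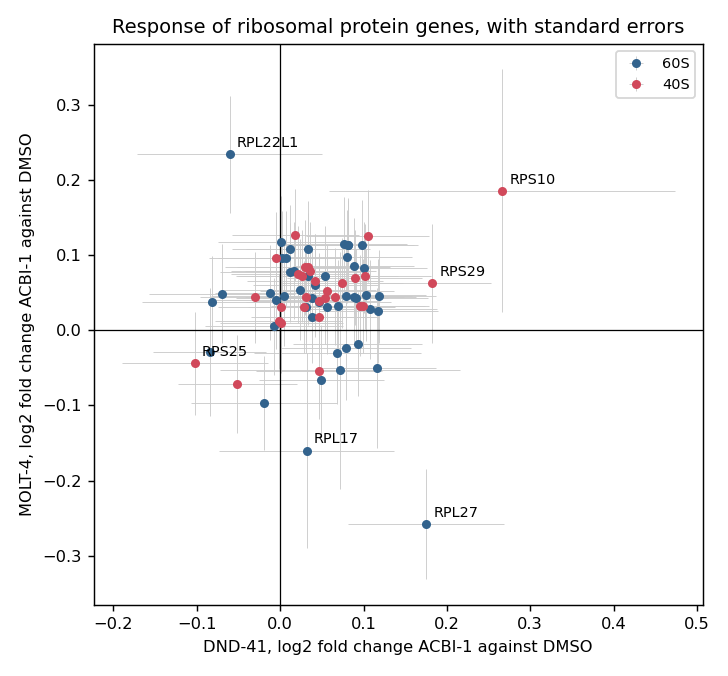
Log2 fold change of each of the 78 tested members with ACBI-1 against DMSO in DND-41 (horizontal) and MOLT-4 (vertical), with grey bars of 1 SE. Most points lie close to 0 on both axes, and RPL27 stands apart with 0.18 on the horizontal and -0.26 on the vertical axis.

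Far larger were the differences between the lines themselves, measured in the DMSO libraries of the same fit, which also serve as controls above. Of 78 members 53 were lower in DND-41 than in MOLT-4 and 5 were higher (edgeR adjusted p under 0.05), where 32.8% of all genes were lower and 31.6% higher. DESeq2 called 57 members in all (57.5% of all genes), and 59 had an unadjusted edgeR p under 0.05 (67.1%). The median difference was -0.26 on the log2 scale, beside -0.0062 for all genes. Large-subunit members were lower for 30 and higher for 3 of 48, and small-subunit members lower for 23 and higher for 2 of 30. DMSO libraries did not overlap for 57 members that were lower (41.3% of all genes) and for 7 that were higher (40.5%). Without the DND-41 DMSO replicate 2 library, in which the MOLT-4 genes named above were detected, 50 members were lower and 4 higher, and the median was -0.31. Over the libraries left out in turn, the number called ran from 39 to 60. The mitochondrial shares and the CD79A level given above also differ between the lines, and their part in these differences was not tested. With 1 line of each kind, what is particular to a line and what is particular to how its cells were grown and handled cannot be told apart.

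RPL22L1 showed the widest gap. Its DND-41 DMSO levels of 13.9 and 16.0 CPM and MOLT-4 levels of 42.2 and 37.2 CPM give a log2 difference of -1.41 ± 0.09 (edgeR adjusted p = 2.65e-13), so MOLT-4 held 2.66 times as much. For RPL22 the difference was -0.00536 ± 0.06 (edgeR adjusted p = 0.948). Per length, RPL22L1 reached 6.82 CPM per kb in DND-41 and 18.1 in MOLT-4, and RPL22 70.5 and 70.8, so RPL22 was the higher of the pair in both lines.

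RPL37, a zinc-binding protein of the large subunit, was at 227 and 259 CPM in DND-41 and at 554 and 473 CPM in MOLT-4, a 2.11-fold higher level in MOLT-4 (log2 difference -1.08 ± 0.08, edgeR adjusted p = 3.48e-12). RPL5 was at 344 and 354 CPM in DND-41 and at 637 and 642 CPM in MOLT-4 (-0.87 ± 0.07, adjusted p = 3.66e-12). Its partner RPL11 was at 539 and 564 against 589 and 571 CPM, a difference of -0.07 ± 0.07 that did not pass (adjusted p = 0.34). RPS12, near the small-subunit beak, was at 144 and 170 against 287 and 265 CPM (-0.81 ± 0.08, adjusted p = 2.32e-10). RPL31, at the tunnel exit, was at 109 and 128 against 209 and 204 CPM (-0.81 ± 0.08, adjusted p = 6.64e-10). RPL27 was at 739 and 710 against 1322 and 1131 CPM (-0.76 ± 0.10, adjusted p = 1.15e-07). For each of these members no DND-41 library reached the lowest MOLT-4 library.

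In the other direction RPLP2 stood first, at 731 and 831 CPM in DND-41 and 504 and 491 CPM in MOLT-4, 1.57-fold higher in DND-41 (0.65 ± 0.08, edgeR adjusted p = 1.92e-08). Its dimer partner RPLP1 differed in the opposite direction, with 512 and 540 against 761 and 754 CPM (-0.53 ± 0.08, adjusted p = 1.08e-06). RPLP0, which anchors both, was at 1622 and 1803 against 2192 and 2165 CPM (-0.35 ± 0.08, adjusted p = 0.00033). RPL17 was at 15.3 and 15.7 against 12.9 and 10.3 CPM (0.42 ± 0.12, adjusted p = 0.00258). Without the MOLT-4 DMSO replicate 2 library its difference was 0.23 and did not pass (edgeR adjusted p = 0.15).

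RPS19 was at 420 and 467 CPM in DND-41 and 354 and 348 CPM in MOLT-4 (0.34 ± 0.08, edgeR adjusted p = 0.0008). RPL36AL was at 68.5 and 68.6 against 58.3 and 55.2 CPM (0.27 ± 0.07, adjusted p = 0.00101), and RPL36A at 7.63 and 6.95 against 5.46 and 6.82 CPM (0.25 ± 0.15, adjusted p = 0.145). RPS15 was at 656 and 643 against 588 and 529 CPM (0.22 ± 0.08, adjusted p = 0.0173). Without the MOLT-4 DMSO replicate 2 library RPL36AL and RPS15 also missed the threshold (adjusted p = 0.0501 and 0.343).

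**Figure D4:**
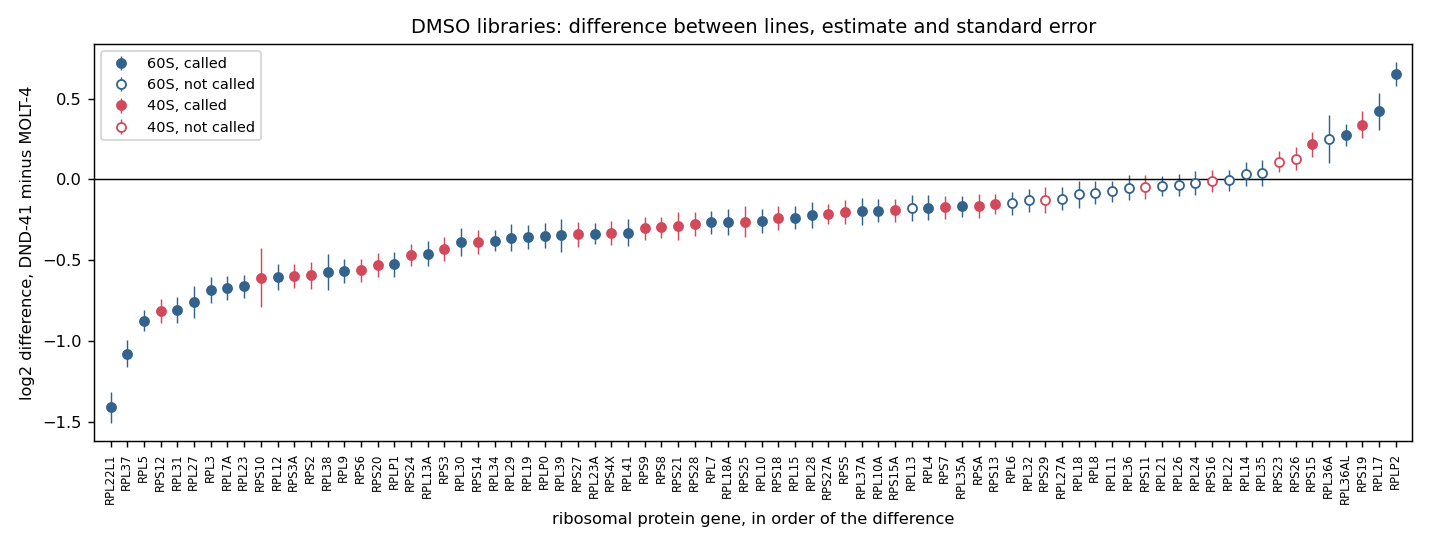
Log2 difference between the lines in DMSO (DND-41 minus MOLT-4) for the 78 tested members, in order, with bars of 1 SE. Filled points passed an adjusted p of 0.05, blue for the large and red for the small subunit. Values run from -1.41 (RPL22L1) to 0.65 (RPLP2), and 68 of 78 lie below 0.

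The most abundant members followed the general direction. RPS2 was at 2826 and 3042 CPM in DND-41 and at 4456 and 4401 CPM in MOLT-4, 1.51-fold higher in MOLT-4 (-0.59 ± 0.08, edgeR adjusted p = 5.31e-07). RPL13A was at 1368 and 1460 against 1998 and 1888 CPM (-0.46 ± 0.08, adjusted p = 8.37e-06). RPS6 was at 728 and 801 against 1142 and 1115 CPM (-0.56 ± 0.07, adjusted p = 1.05e-07). RPS14, whose loss underlies the anaemia of the 5q- syndrome, was at 383 and 415 against 493 and 550 CPM (-0.39 ± 0.07, adjusted p = 5.95e-05). RPL10 was at 1319 and 1436 against 1661 and 1630 CPM (-0.26 ± 0.08, adjusted p = 0.00445), a call that was lost without the DND-41 DMSO replicate 1 library (adjusted p = 0.0962). RPSA was at 718 and 767 against 830 and 834 CPM (-0.16 ± 0.07, adjusted p = 0.0484), the weakest call of these, lost in 10 of 17 alternatives. Over the 78 members the line difference showed little relation to transcript length (r = -0.23), GC content (r = 0.22) or level per length (r = -0.06), given as descriptions over genes that share their libraries.

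**Figure D5:**
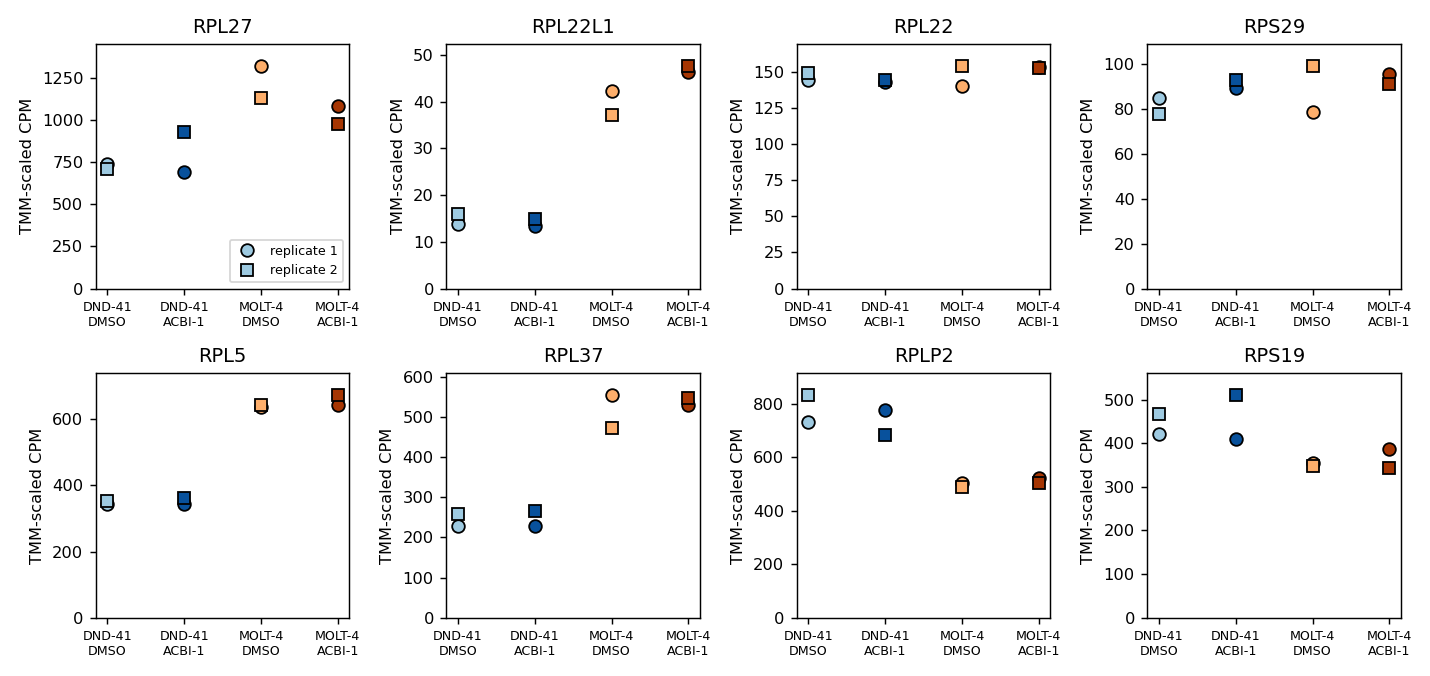
TMM-scaled CPM of 8 members in every library, with axes from 0, circles for replicate 1 and squares for replicate 2. RPL22L1, RPL37 and RPL5 are higher in all MOLT-4 libraries, RPLP2 is higher in all DND-41 libraries, and RPL22 lies between 140 and 154 CPM throughout.

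Ribosomal protein genes outside the naming rule were measured as well. FAU encodes a small-subunit protein fused to a ubiquitin-like protein, and RACK1 (GNB2L1) sits on the small-subunit head. Of the list that holds them 0 of 7 tested genes were called in DND-41 and 0 of 6 in MOLT-4. Of all genes tested 9.83% and 10.8% were called, so a list this short could hold none at those shares. FAU had log2 fold changes of 0.04 ± 0.07 and 0.01 ± 0.06, and RACK1 0.03 ± 0.09 and 0.05 ± 0.07. Between the lines, FAU was 0.19 ± 0.07 higher in DND-41 (edgeR adjusted p = 0.0212), a call lost in 6 of 17 alternatives, with DESeq2 (adjusted p = 0.0608) and without the DND-41 DMSO replicate 2 library (0.08, adjusted p = 0.464) among them, while RACK1 (-0.14 ± 0.08, adjusted p = 0.112) did not pass.

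Genes that share the TOP start or act on the same proteins were counted beside them. Among translation factors and other TOP genes 0 of 29 passed in either line, with medians of 0.04 in DND-41 and 0.01 in MOLT-4. The list of 15 snoRNA host genes overlaps the others, as it holds the member RPS3, RACK1, and EEF1B2 and EEF2 of the translation factors. Of these 15 genes 0 passed in DND-41 and 1 in MOLT-4. This was SNHG15, which went from 67.3 and 61.9 to 99.6 and 94.6 CPM (0.58 ± 0.07, edgeR adjusted p = 9.77e-07) in MOLT-4 and from 45.8 and 46.9 to 49.7 and 44.8 CPM in DND-41 (0.04 ± 0.08). Of 26 chaperones and late assembly factors 3 rose in DND-41, 2 rose in MOLT-4, and none fell by this test. Of all genes tested, 3.78% and 3.9% rose and 9.83% and 10.8% were called in either direction. In DND-41 these were RIOK2, a kinase of 40S maturation (0.38 ± 0.09, adjusted p = 0.00298), RRS1, which loads the 5S particle (0.29 ± 0.08, adjusted p = 0.0163), and BYSL, a 40S assembly factor (0.24 ± 0.08, adjusted p = 0.038). In MOLT-4 they were BYSL (0.33 ± 0.07, adjusted p = 0.00354) and MRTO4, which holds the place of the stalk (0.26 ± 0.07, adjusted p = 0.0134). Of 13 alternatives each, the DND-41 calls of BYSL, RRS1 and RIOK2 were lost in 8, 6 and 4, and the MOLT-4 calls of MRTO4 and BYSL in 6 and 3. Without the DND-41 ACBI-1 replicate 2 library, BYSL had 0.15 and RRS1 0.18, and neither passed.

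Among regulators of ribosomal protein synthesis there were 2 rises and 1 fall of 23 in DND-41, where 9.83% of all genes were called, and 3 rises and 4 falls of 24 in MOLT-4, where 10.8% of all genes were called. MYC, which drives ribosome production, rose in both, from 970 and 991 to 1073 and 1311 CPM in DND-41 (0.30 ± 0.09, edgeR adjusted p = 0.0274) and from 693 and 669 to 850 and 900 CPM in MOLT-4 (0.35 ± 0.06, adjusted p = 0.0003). The DND-41 call of MYC was lost in 6 of 13 alternatives, among them each library left out, with 0.15 without the ACBI-1 replicate 2 library. GABPA, an ETS factor chosen for mention after its values were seen, rose by 0.37 ± 0.08 in DND-41 (adjusted p = 0.00159) and by 0.30 ± 0.07 in MOLT-4 (adjusted p = 0.00605). GABPA was not among the genes followed through the alternatives. SESN2, an inhibitor of mTORC1, went from 122 and 121 to 55.4 and 71.9 CPM in DND-41 (-0.92 ± 0.08, adjusted p = 8.74e-10) and from 36.2 and 33.7 to 27.9 and 27.5 CPM in MOLT-4 (-0.34 ± 0.08, adjusted p = 0.00573). Of 13 alternatives each, the SESN2 call was lost in 2 in DND-41 and in 5 in MOLT-4. DDIT4, another inhibitor of mTORC1, fell in MOLT-4 from 17.8 and 19.4 to 8.57 and 9.40 CPM (-1.06 ± 0.11, adjusted p = 2.54e-07) and had -0.17 ± 0.10 in DND-41 (adjusted p = 0.352). MYCN, at 15.1 and 13.9 CPM with DMSO, fell to 8.37 and 7.39 CPM in MOLT-4 (-0.89 ± 0.12, adjusted p = 1.05e-05) and had at most 1 count in any DND-41 library. In the list of the 5S particle and p53 surveillance, CDKN1A fell in DND-41 (-0.70 ± 0.11, adjusted p = 5.76e-05) and RRS1 rose, and 0 of 9 passed in MOLT-4. The ribosomal protein genes, measured in the same libraries, gave 0 and 1 calls.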

How the data were processed

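The authors deposited raw read counts for 63677 genes in 1 table per line, and, for each line, the output of their comparison, with a mean signal, log2 fold change, test score (statistic) and p-value, per the file headers. The submitters' processing notes name STAR 2.5.2a, featureCounts, DESeq2 1.12.4 and hg19. For the annotation and the strand setting, nothing is given in the sources used here. Reads of overlapping or antisense genes and of near-identical copies therefore cannot be separated. The deposited log2 fold changes correlate at 0.999976 (DND-41) and -0.999981 (MOLT-4) with those computed here, so the MOLT-4 table has the opposite sign.

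Counts were tested in edgeR 4.0.16 (limma 3.58.1, R 4.3.3) by the quasi-likelihood test with TMM scaling and filterByExpr, each line on its 4 libraries, and all 8 libraries for the interaction and the line difference. P-values were adjusted by Benjamini-Hochberg over all genes tested. Each SE is the size of the edgeR log2 value divided by the square root of its F statistic. It thus restates the test and is not a separate estimate of the spread. CPM are on TMM-scaled totals, except the sums over marker lists and the check of MOLT-4 genes in DND-41, which use plain library totals. The fits were tested on simulated data. DESeq2 1.42.0, other scalings, no filter, a threshold of 0.01, a replicate block and leaving out libraries were tried as alternatives. The chi-square between replicates averaged 2.99 to 15.6 per gene, so no libraries were merged. Lengths, GC content and start sites come from GENCODE release 29 and RefSeq GRCh38.p14, not the build of the counts, and no coordinates were converted. Members, gene lists and tests were chosen with earlier results of these data known. Named genes are members called, the 4 smallest p per direction and line, the largest line differences (mean of at least 5 CPM), the 3 highest and lowest levels, fixed ribosomal protein genes, and up to 4 called genes per list. Some of these are not reported here.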

Additional observations from a re-analysis of the deposited data

Results flagged for a closer look

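Of the values reported, 3 genes outside the ribosomal protein genes had responses that differed between the lines by the test of the difference itself (edgeR interaction of line and treatment, all 8 libraries). The response of SNHG15, a snoRNA host gene, differed by -0.56 on the log2 scale, DND-41 minus MOLT-4 (SE 0.10, edgeR adjusted p = 0.00525). For SESN2 the difference was -0.60 (SE 0.13, edgeR adjusted p = 0.0182), and it fell in both libraries of both lines. For DDIT4 it was 0.86 (SE 0.16, edgeR adjusted p = 0.00565). Over 16 alternatives each, the call was lost in 3 for SNHG15, 7 for SESN2 and 2 for DDIT4. With 2 libraries a group, a single library that stands apart within its group could not be tested.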

How the results depend on the processing

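With DMSO and ACBI-1 libraries of the same number as a replicate block, 1 member was called in DND-41 (RPS29, edgeR adjusted p = 0.0181), 2 in MOLT-4, 1 in the interaction (RPL27, adjusted p = 0.000821) and 55 between lines. The labels do not say that a number marks a shared culture, and same-numbered libraries deviated together with r = 0.05 in DND-41 and 0.16 in MOLT-4. The MOLT-4 count of 1 became 0 with DESeq2, without a filter on low counts, at a threshold of 0.01 and with all 8 libraries in 1 fit, and 2 with DESeq2 size factors in edgeR. With libraries left out in turn it ran from 0 to 3, that of the interaction from 0 to 1, that between lines from 39 to 60, and that of DND-41 stayed at 0. The member medians then ran from -0.04 to 0.12 in DND-41, from 0.027 to 0.091 in MOLT-4 and from -0.33 to -0.20 between lines, and the share differences from -0.147 to 0.406 percentage points in DND-41 and from 0.133 to 0.362 in MOLT-4. The lone library left in a group is then assumed to vary like the others. Of 2970 values of single genes under alternatives, 137 lost and 15 gained a call, and of the rest 129 that were not called moved by over 1 SE and 2689 kept their call status without such a move. No called value changed sign, while 162 values that were not called crossed 0. Without a filter only 2 (DND-41) and 39 (MOLT-4) genes of all were called. The members' median SE was 0.08 in DND-41 and 0.06 in MOLT-4, and with 2 libraries a group changes well above it could miss the threshold. RPS29 in DND-41 (0.18 ± 0.07, edgeR adjusted p = 0.103) and RPL22L1 in MOLT-4 (0.23 ± 0.08, edgeR adjusted p = 0.0518) did so.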

Other observations

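Some T-cell genes and line-marking factors were called in the same comparisons. CD3G, a chain of the T-cell receptor complex, went from 291 and 271 to 391 and 353 CPM in DND-41 (0.42 ± 0.07, edgeR adjusted p = 0.000129) and from 169 and 149 to 205 and 214 CPM in MOLT-4 (0.39 ± 0.07, adjusted p = 0.000162). CD2, an adhesion receptor, rose in DND-41 (0.45 ± 0.11, edgeR adjusted p = 0.00444), a call lost in 5 of 13 alternatives, with 0.29 without the ACBI-1 replicate 1 library. In MOLT-4, CD5 fell from 150 and 158 to 103 and 110 CPM (-0.54 ± 0.06, adjusted p = 1.04e-06) and CD7 from 86.1 and 94.6 to 77.4 and 80.3 CPM (-0.21 ± 0.07, adjusted p = 0.0492). The CD7 call was lost in 9 of 13 alternatives, with -0.14 without the DMSO replicate 2 library. Of 8 T-lineage markers 2 rose in DND-41, and 1 rose and 2 fell in MOLT-4, where 9.83% and 10.8% of all genes were called. CD5 had the largest value in DND-41 but was not called there (-0.51 ± 0.31, edgeR adjusted p = 0.368), at 1.33 and 2.18 CPM with DMSO and 1.13 and 1.30 CPM with ACBI-1. The leukaemia-driving transcription factor TLX3 fell in DND-41 from 350 and 373 to 226 and 268 CPM (-0.54 ± 0.07, adjusted p = 4.6e-06). TAL1 had 0.07 in MOLT-4 and was not called. LMO2, its partner, fell in MOLT-4 from 5.92 and 4.49 to 1.71 and 2.003 CPM (-1.49 ± 0.22, adjusted p = 1.96e-05) and had 0 counts in DND-41.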
